A study of Homo sapiens with 6 samples.

Results

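The SERPINA gene cluster on the long arm of chromosome 14 encodes serpins that the liver secretes into plasma. The 7 members described here are SERPINA1, SERPINA3, SERPINA4, SERPINA5, SERPINA6, SERPINA10 and SERPINA11, found by symbol among the 24432 gene rows of each library. They were chosen as neighbouring clade A serpins, selected on their FPKM values in resistant against sensitive libraries. Their difference between the groups is therefore given as a description, with no test.

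RNA was sequenced from 3 resistant and 3 sensitive libraries labelled as PLC/PRF/5, a cell line long established from a human hepatocellular carcinoma. Resistant cells carry the genotype label Lenvatinib resistant and the treatment label Lenvatinib, a kinase inhibitor used against liver cancer, and sensitive cells carry the labels WT and control. Both were grown in DMEM with 10% serum. The drug began at 20 μmol/L, went up by 0.5 mmol/L per passage and ended at 40 mmol/L per the labels, so the unit of the start does not match that of the steps. Drug exposure and resistance cannot be told apart, and the labels do not state whether the resistant strain is 1 clone or whether replicates were separate cultures. The p-values below therefore measure the spread between these libraries, which may be technical.

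A serpin inhibits a protease by offering it a reactive loop as bait and then trapping the enzyme in a complex that receptors clear. Some family members have lost this activity and serve as carriers. In hepatocytes, transcription of the cluster is known to depend on liver-enriched factors such as HNF4A, FOXA proteins and C/EBP proteins. SERPINA1 and SERPINA3 are also acute phase genes, which respond to interleukin-6 signalling through STAT3 and to interleukin-1.

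Sequence upstream of the members is shown because the RNA of several liver factors, described below, differed between the groups. The 250 bases before each annotated start were searched on both strands for the homeodomain core GTTAAT, the FOXA core TGTTTAC or TGTTTGC, the STAT site TTCNNNGAA and the C/EBP core TTGCNNAA. Matches of different motifs overlapped in 0 member windows. The core GTTAAT was found for 4 of the 7 members and in 4 of their 9 windows. Of 35116 RefSeq windows of the same length 6.23% hold it, and of the 27305 genes they belong to 7.50% do in at least 1 window. These matches are shown with the core in capitals, in sequence of 30 bases from RefSeq on build GRCh38.p14, each read along the strand of its gene. The windows of SERPINA1 and SERPINA4 and the last of SERPINA6 overlap an exon that GENCODE annotates, and the others overlap none.
SERPINA10, chr14:94293306-94293335, minus strand: cacaagcaggatGTTAATcagtaaccgtcc
SERPINA6, chr14:94323489-94323518, minus strand: acgcagagcaaaGTTAATttgcagcatttc
SERPINA6, chr14:94323434-94323463, minus strand: agcctcccattgGTTAATgactcgggggag
SERPINA6, chr14:94323377-94323406, minus strand: gcccctctaaccATTAACcacccaggaagc
SERPINA1, chr14:94388661-94388690, minus strand: ggggtgaccttgGTTAATattcaccagcag
SERPINA4, chr14:94561355-94561384, plus strand: cgtagcctgtttGTTAATaattacctggtc

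The core begins 55 bases before the start of SERPINA10, 76 bases before that of SERPINA1 and 75 bases before that of SERPINA4. SERPINA6 holds the core 3 times, beginning 170, 115 and 58 bases before its start, the last of them on the other strand. SERPINA1 and SERPINA10 each have 2 annotated windows, and in each gene the core lies in only 1 of them. The FOXA core was found for 3 members, SERPINA1, SERPINA6 and SERPINA11, in 3 of 9 windows, against 6.09% of all windows and 7.41% of genes. The STAT site was found for 3 members, SERPINA5, SERPINA6 and SERPINA11, also in 3 of 9 windows, against 6.57% of all windows and 8.09% of genes. The C/EBP core was found for 1 member, SERPINA10, in 1 of 9 windows, against 9.05% of all windows and 11.03% of genes.

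SERPINA6 and SERPINA3 are set side by side because they hold the most matches and none, and because their RNA lay on opposite sides of the comparison. They were picked for both, so the pair says nothing of a link between motifs and direction. The stretch of SERPINA6 runs from 250 to 59 bases before its start, with GTTAAT and FOXA cores in capitals. That of SERPINA3 runs from 250 to 15 bases before its start and holds none of the motifs searched. A STAT site lies further up in the SERPINA6 stretch, in lower case.
SERPINA6, chr14:94323395-94323586, minus strand: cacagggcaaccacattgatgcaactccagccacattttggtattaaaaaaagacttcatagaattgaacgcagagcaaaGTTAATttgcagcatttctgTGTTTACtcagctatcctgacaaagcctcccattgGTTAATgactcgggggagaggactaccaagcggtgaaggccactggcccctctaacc
SERPINA3, chr14:94612141-94612376, plus strand: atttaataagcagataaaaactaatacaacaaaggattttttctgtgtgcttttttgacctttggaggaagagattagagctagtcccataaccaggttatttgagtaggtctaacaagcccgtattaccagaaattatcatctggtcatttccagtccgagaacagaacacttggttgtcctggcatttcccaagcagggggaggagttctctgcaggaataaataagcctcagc

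Levels are in FPKM, which scales fragments to transcript length and library size, a scale per length on which genes can be compared. Summed FPKM ran from 366048 to 377923 in resistant and from 410492 to 475088 in sensitive libraries. The spacing of low values, from which depth was read, varied by at most 3.46% between libraries. Only ratios within 5% of resistant replicate 1 were searched, so a larger difference in depth could not have appeared. Sensitive replicate 3 stood apart from its group, with Pearson's r of 0.9515 and 0.9643 across genes to sensitive replicates 1 and 2, which reached 0.9947 with each other. Between the groups r was 0.6796 to 0.7064. Hepatocyte markers went against the labelled cell type in the resistant libraries. The 15 markers summed to 11.1 to 26.9 FPKM in resistant and 1639 to 2037 FPKM in sensitive libraries, and the 14 that could be tested were all lower in resistant cells, 7 of them having passed the filter only through the sensitive libraries. ALB was listed at 0, 0.0222 and 0 FPKM in resistant libraries, against 4.02, 3.61 and 2.01 FPKM in sensitive libraries. Names of groups below are those of the labels.

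Cells of the sensitive group held alpha-1-antitrypsin RNA as one of their most abundant transcripts, with corticosteroid-binding globulin well below it and the other members scarce. In resistant libraries 5 members were below every sensitive library, and SERPINA3 was the 1 member above every sensitive library. The 3 members at 0 in every resistant library were SERPINA4, SERPINA5 and SERPINA11, and SERPINA4 is not among those 5. The groups of 6 members did not overlap. Among 22521 genes above 0 anywhere, the groups did not overlap for 56.2%, with every resistant library below every sensitive one for 27.2% and above for 28.9%, and among genes passing the level filter given below they did not overlap for 74.4%. Nothing is read from the members' counts, since this contrast chose them. In bulk RNA, fewer cells that express a gene and less RNA per cell cannot be told apart.

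SERPINA1 encodes alpha-1-antitrypsin, the main plasma inhibitor of neutrophil elastase. It measured 10.0, 20.9 and 8.66 FPKM in resistant replicates 1, 2 and 3, against 2089, 2265 and 2401 FPKM in sensitive replicates 1, 2 and 3. The groups did not overlap, and resistant replicate 2 was the high library of its group, at 2.24 times the mean of the other two. Means were 13.2 ± 6.74 FPKM in resistant and 2252 ± 157 FPKM in sensitive cells (SD, n = 3 each, here and below), 171-fold lower in resistant cells. By rank among all 24432 genes SERPINA1 stood at 4869, 2835 and 5496 in resistant libraries, against 16, 16 and 17 in sensitive libraries.

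The residual SERPINA1 signal in resistant libraries was well above the smallest value the data can hold. After scaling for depth, all nonzero values of a member were whole multiples of a step, within 0.002 of a step. A step is what 1 read would add had whole reads been counted. SERPINA1 stood at 1429, 3011 and 1247 steps in resistant libraries, against 302306, 331476 and 339742 steps in sensitive libraries. The exact Poisson 95% intervals in resistant replicates 1, 2 and 3 were 1356 to 1505, 2904 to 3120 and 1179 to 1318 steps, so replicate 2 lay above the other two by more than counting error, which is all that these intervals cover.

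SERPINA6 encodes corticosteroid-binding globulin, a serpin that carries cortisol and does not inhibit proteases. It measured 0.674, 0.877 and 0.704 FPKM in resistant libraries, against 60.3, 70.5 and 106 FPKM in sensitive libraries. The groups did not overlap, and the high sensitive library was replicate 3, at 1.63 times the mean of the other two. Means were 0.752 ± 0.109 FPKM in resistant and 79.1 ± 24.2 FPKM in sensitive cells, 105-fold lower in resistant cells. Its steps were 39, 51 and 41 in resistant libraries, with intervals of 27.7 to 53.3, 37.97 to 67.1 and 29.4 to 55.6 that overlap each other, against 3534, 4177 and 6095 in sensitive libraries.

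SERPINA10 encodes the protein Z-dependent inhibitor of coagulation factor Xa. It was listed at 0, 0.0226 and 0 FPKM in resistant libraries, against 3.95, 3.85 and 3.77 FPKM in sensitive libraries. The only resistant library above 0 was replicate 2, at 5 steps, and the sensitive libraries stood at 881, 870 and 823 steps. The sensitive spread was the smallest of the members relative to its mean, 3.86 ± 0.0877 FPKM.

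SERPINA3 encodes alpha-1-antichymotrypsin, an inhibitor of cathepsin G, and was the member that lay the other way. It measured 2.14, 1.51 and 1.47 FPKM in resistant libraries, against 0.0399, 0.250 and 0.327 FPKM in sensitive libraries. The groups did not overlap. Means were 1.71 ± 0.376 FPKM in resistant and 0.206 ± 0.148 FPKM in sensitive cells, 8.32-fold higher in resistant cells. In steps the values were 159, 113 and 110 in resistant libraries, against 3, 19 and 24 in sensitive libraries, so sensitive replicate 1 stood at the level of a handful of reads. This order between the groups is the reverse of that of SERPINA1, but its resistant level was still below that of SERPINA1 in every resistant library.

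The remaining members were near the floor. SERPINA5, the protein C inhibitor, was listed at 0 in every resistant library, against 0.244, 0.186 and 0.0566 FPKM in sensitive libraries, which is 22, 17 and 5 steps. SERPINA11 was listed at 0 in every resistant library, against 0.113, 0.0954 and 0.115 FPKM in sensitive libraries, which is 7, 6 and 7 steps. SERPINA4, the tissue kallikrein inhibitor kallistatin, was listed at 0 in every resistant library, against 0.0637, 0 and 0.0521 FPKM in sensitive libraries. Its groups overlap, because sensitive replicate 2 is also at 0. A level of 3 steps, the upper limit with 95% one-sided confidence that a count of 0 allows in a library, was 0.0336 FPKM for SERPINA5, 0.0488 FPKM for SERPINA11 and 0.0387 FPKM for SERPINA4, and RNA below those levels could be missed in a library.

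**Figure D1:**
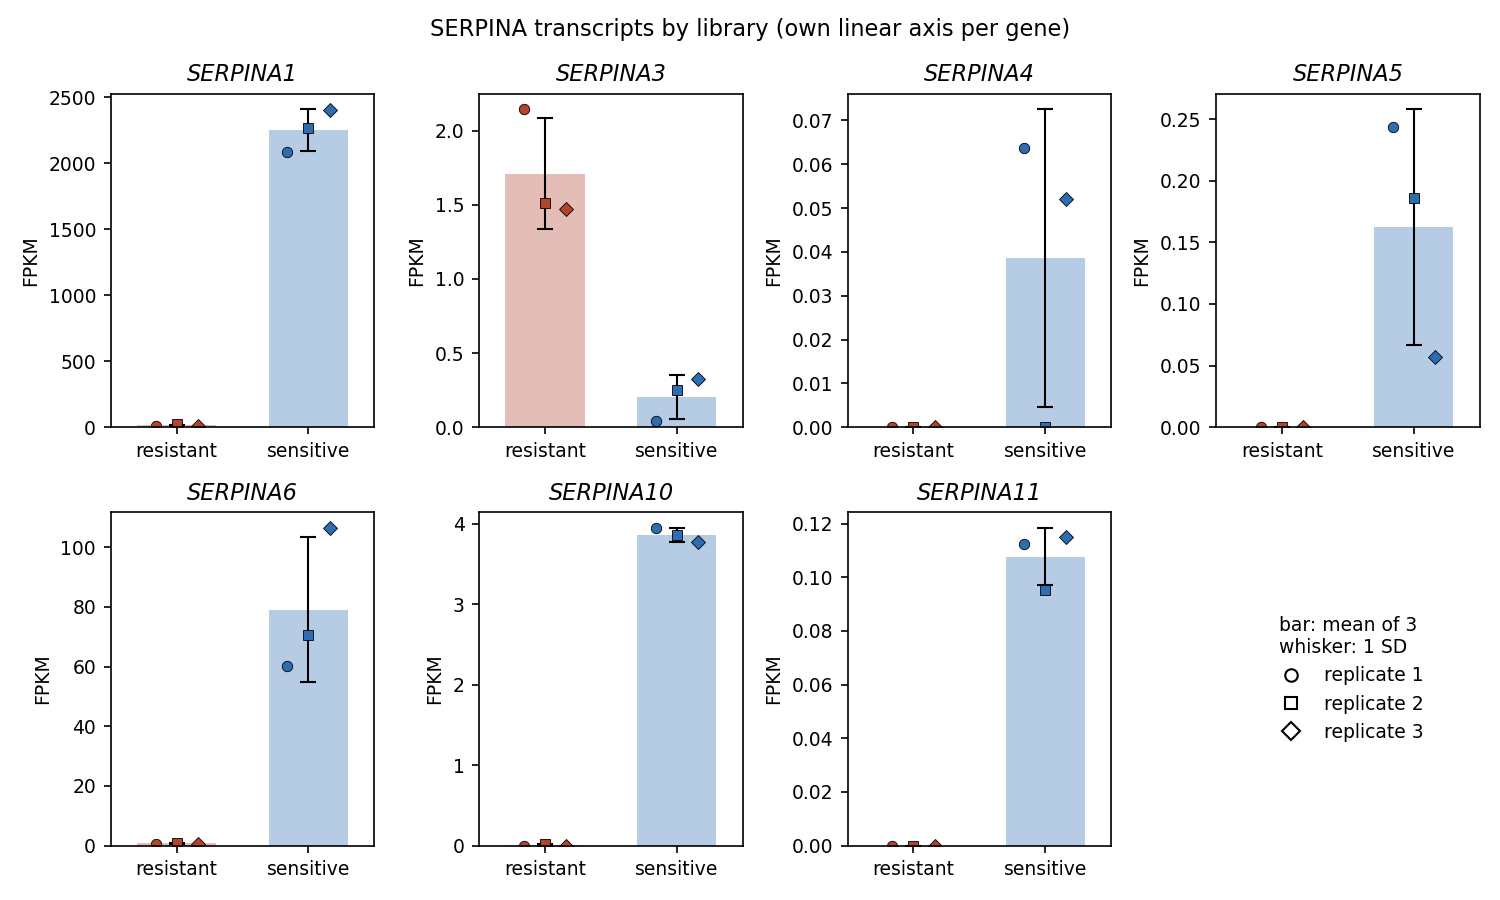
FPKM on a linear axis of its own for each of the 7 SERPINA members, with 3 resistant libraries left of 3 sensitive libraries as points, the group mean as a bar and 1 SD as a whisker. SERPINA1 sits at 8.66 to 20.9 FPKM in resistant libraries and 2089 to 2401 FPKM in sensitive libraries, and SERPINA3 is the gene whose resistant points lie above its sensitive points.

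On the log2(FPKM + 1) scale, which understates the change of low genes, the difference of resistant minus sensitive was -7.41 for SERPINA1, -5.48 for SERPINA6, -2.27 for SERPINA10 and 1.17 for SERPINA3. These 4 members reached 1 FPKM in at least 3 libraries, SERPINA6 and SERPINA10 only through the sensitive libraries and SERPINA3 only through the resistant ones. The 3 others did not reach it. With a pseudocount of 0.1 in place of 1 the differences were -7.51, -6.50, -5.21 and 2.70 in the same order of genes.

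By mean level the order in resistant cells was SERPINA1, SERPINA3, SERPINA6, SERPINA10 and then the 3 members at 0. In sensitive cells it was SERPINA1, SERPINA6, SERPINA10, SERPINA3, SERPINA5, SERPINA11 and SERPINA4. In the sensitive order the libraries of SERPINA3, SERPINA5 and SERPINA11 overlapped from each gene to the next, and those of the other neighbours did not. In the resistant order the libraries of SERPINA10 overlapped those of the members at 0, and those of the other neighbours did not. Together the members made up 0.00339%, 0.00638% and 0.00295% of summed FPKM in resistant libraries, against 0.525%, 0.547% and 0.529% in sensitive libraries. SERPINA1 made up 78.0%, 89.7% and 79.9% of the members' sum in resistant libraries, against 97.0%, 96.8% and 95.6% in sensitive libraries.

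The ratio of SERPINA1 to SERPINA6 was 14.8, 23.9 and 12.3 in resistant libraries, against 34.6, 32.1 and 22.6 in sensitive libraries, so these ratios overlap between resistant replicate 2 and sensitive replicate 3. SERPINA1 stood at 0.444%, 0.930% and 0.385% of its sensitive mean in resistant replicates 1, 2 and 3, and SERPINA6 at 0.853%, 1.11% and 0.890%. For SERPINA10 the values were 0%, 0.585% and 0%.

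Resistant replicate 2 was also the high library for hepatocyte markers. The median of the 14 tested markers was 0.205%, 0.909% and 0.206% of the sensitive mean in resistant replicates 1, 2 and 3, and replicate 2 was highest for 13 of the 14, the exception being TAT, a tyrosine aminotransferase. SERPINA3 did not follow this order, since its highest resistant library was replicate 1. The part of the markers in the SERPINA1 value was not tested. Without resistant replicate 2 the SERPINA1 difference was -7.77 on the log2 scale.

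**Figure D2:**
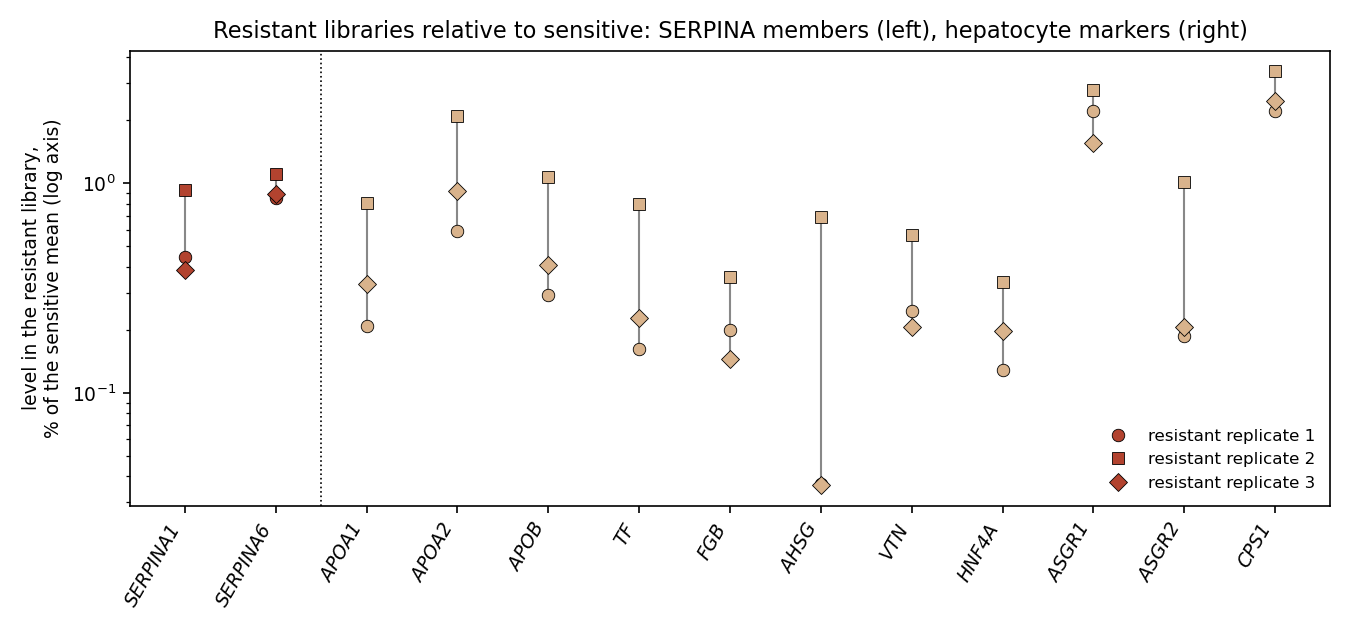
Level in each resistant library as a percentage of the sensitive mean, on a logarithmic axis, for SERPINA1, SERPINA6 and the 11 tested hepatocyte markers above 0 in every resistant library, 1 point per replicate joined by a line per gene. Resistant replicate 2 is the highest point for SERPINA1, at 0.930%, for SERPINA6, at 1.11%, and for the 11 markers drawn.

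Genes that lack a row here were skipped in the gene order, so genes named as neighbours need not be adjacent on the chromosome. In RefSeq order the protein-coding genes with rows in the cluster and beside it run PPP4R4, SERPINA10, SERPINA6, SERPINA1, SERPINA11, SERPINA9, SERPINA4, SERPINA5, SERPINA3 and DICER1. The member that was higher in resistant cells thus lies at the far end from those with the most abundant sensitive RNA. SERPINA9, inside the cluster, was listed at 0 in all libraries. Genes on either side were tested with limma in a fit across all genes, in which 67.7% of 11694 tested genes were called, with a Benjamini-Hochberg adjusted p under 0.05, 35.2% higher and 32.5% lower in resistant cells. Of the 15 nearest genes with rows on each side, 17 were tested and 12 were called, 5 higher and 7 lower, a share near that background. Of the 17, 4 passed the filter only through the sensitive libraries and 1 only through the resistant ones. Their median log2 fold change was -0.17, against 0.08 over all tested genes.

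The nearest gene with a row beyond SERPINA10, PPP4R4, a regulatory subunit of protein phosphatase 4, rose, with 1.89, 2.35 and 2.44 FPKM in resistant libraries, against 1.06, 0.956 and 0.361 FPKM in sensitive libraries (log2 fold change 0.87 ± 0.18 SE, adjusted p = 0.00411). The nearest gene with a row beyond SERPINA3, DICER1, which makes microRNAs, measured 0.987, 1.19 and 1.41 FPKM in resistant libraries, against 3.65, 2.85 and 0.856 FPKM in sensitive libraries, and its groups overlapped (-0.55 on the log2 scale, adjusted p = 0.173). It was called at -0.95 with sensitive replicate 3, its low sensitive library, left out (adjusted p = 0.000141). DICER1 and its antisense partner DICER1-AS1 may share reads, because the strand setting of the counts is not given in the sources used here.

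Flanking genes called at 2-fold or more on the log2(FPKM + 1) scale were 2 that rose and 3 that fell, of which IFI27 and SNHG10 passed the filter only through the sensitive libraries and CLMN only through the resistant ones. The interferon-inducible family member IFI27L2 averaged 9.56 ± 1.80 FPKM in resistant and 1.20 ± 0.454 FPKM in sensitive cells (2.27, adjusted p = 6.96e-05), and CLMN, which encodes calmin, averaged 3.73 ± 0.325 FPKM in resistant and 0.0625 ± 0.0322 FPKM in sensitive cells (2.15). IFI27 (-1.14), the iron-sulphur cluster gene GLRX5 (-1.11) and the noncoding RNA SNHG10 (-1.01) fell. IFI27 and IFI27L2, which lie next to each other among the genes with rows, thus lay in opposite directions.

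**Figure D3:**
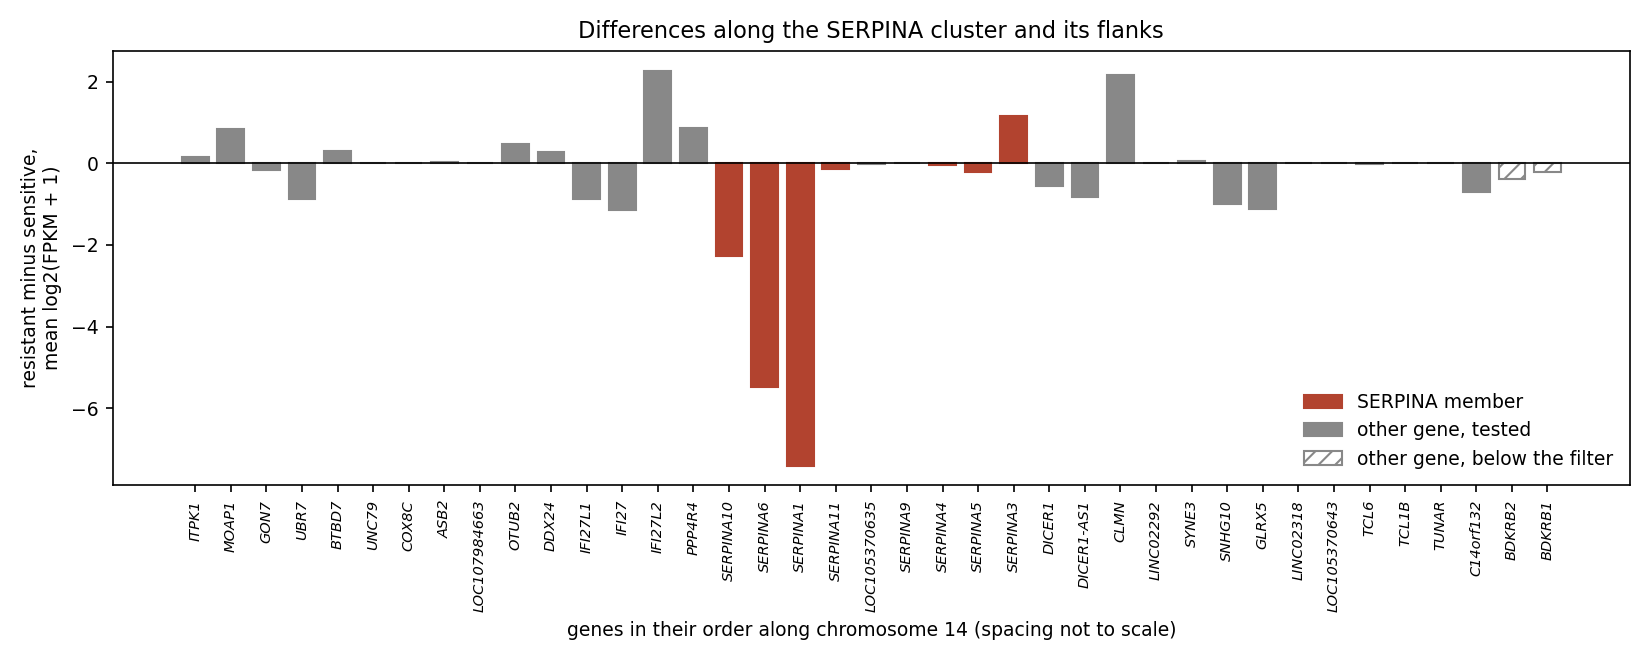
Difference on the log2(FPKM + 1) scale, resistant minus sensitive, for the genes with rows in the SERPINA cluster and 15 genes with rows on each side, as bars in chromosome order with no spacing to scale, hatched for genes below the filter. SERPINA1, SERPINA6 and SERPINA10 reach -7.41, -5.48 and -2.27, while the flanking genes lie between -1.14 and 2.27.

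RNA of the liver-enriched transcription factors was lower in resistant cells, with CEBPD and CEBPB among the exceptions. Of 16 regulators on the list, 13 were tested, 10 fell, 1 rose and 2 were not called, and 8 of the 13 passed the level filter only through the sensitive libraries. Their called share was 84.6%, beside the 67.7% of all tested genes, and their median log2 fold change was -2.47, against 0.08 over all tested genes. HNF4A, a nuclear receptor central to hepatocyte identity, averaged 0.0655 ± 0.0315 FPKM in resistant and 29.7 ± 6.59 FPKM in sensitive cells (-4.82, adjusted p = 1.38e-06). FOXA2, FOXA3 and ONECUT1 also fell, with log2 fold changes of -4.29, -4.00 and -3.61. HNF4A, FOXA2, FOXA3 and ONECUT1 passed the filter only through the sensitive libraries, so each had to be lower in resistant cells. CEBPA, which binds the C/EBP core, averaged 2.70 ± 0.235 FPKM in resistant and 27.4 ± 3.75 FPKM in sensitive cells (-2.94, adjusted p = 3.31e-06). CEBPB, a C/EBP factor induced in the acute phase, rose, with 191, 170 and 166 FPKM in resistant libraries, against 47.7, 51.9 and 130 FPKM in sensitive libraries (1.34, adjusted p = 0.0146). It was not called without resistant replicate 1 (adjusted p = 0.0533) or sensitive replicate 2 (adjusted p = 0.0509). CEBPD was not called (-0.47, adjusted p = 0.104), but was called without sensitive replicate 1 (-0.71, adjusted p = 0.00619).

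Genes of the interleukin-6 and interleukin-1 signal path, which acts on SERPINA3 and SERPINA1 in hepatocytes, were mostly higher in resistant cells. All 21 had rows, 17 were tested, 12 rose, 1 fell and 4 were not called, with a median of 0.94 against 0.08 over all tested genes. The called share was 76.5%, beside the 67.7% of all tested genes. Of the 12 that rose, 4, namely IL6, LIF, LIFR and IL1RAP, passed the filter only through the resistant libraries and so had to be higher there. The ligand IL6 measured 317, 308 and 316 FPKM in resistant libraries, against 0.239, 0.261 and 0.143 FPKM in sensitive libraries (8.02 ± 0.10 SE, adjusted p = 9.14e-08). LIF, a ligand of the same family, rose by 7.31. OSMR, the oncostatin M receptor, averaged 43.4 ± 2.67 FPKM in resistant and 4.37 ± 1.08 FPKM in sensitive cells (3.07), and the shared receptor chain IL6ST rose by 1.85. SOCS3, a feedback inhibitor that STAT3 induces, averaged 8.94 ± 0.824 FPKM in resistant and 2.45 ± 0.388 FPKM in sensitive cells (1.53, adjusted p = 7.46e-05).

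The interleukin-6 receptor itself, IL6R, was the 1 gene of this list that fell, with 3.18, 3.53 and 3.29 FPKM in resistant libraries, against 27.0, 26.7 and 13.4 FPKM in sensitive libraries (-2.37, adjusted p = 0.000224). The kinase TYK2, PIAS3, IL1R1 and the glucocorticoid receptor NR3C1 were not called. IL1R1 measured 2.13, 2.54 and 2.41 FPKM in resistant libraries, against 12.1, 10.7 and 2.27 FPKM in sensitive libraries. Its difference was -1.24 (adjusted p = 0.0646). It was called without sensitive replicate 3 (-1.88, adjusted p = 8.18e-07), with quantile normalization (-1.37, adjusted p = 0.0262) and with libraries scaled to their geometric mean (-1.28, adjusted p = 0.0412).

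Plasma proteins of the acute phase were mostly lower in resistant cells, both those whose levels rise in the acute phase and those whose levels fall. Of 22 with rows, 12 were tested, 11 fell and 1 rose. Of the 12, 7 passed the filter only through the sensitive libraries and 1, LCN2, only through the resistant ones. Among 8 that rise in the acute phase, 7 fell and 1 rose here, and the 4 tested whose levels drop in the acute phase, ALB, TF, RBP4 and AHSG, all fell. All 12 tested were thus called, beside 67.7% of all tested genes, and the median was -4.67, against 0.08 over all tested genes. The fibrinogen chains FGA, FGG and FGB fell, with log2 fold changes of -7.50, -7.16 and -5.49. The retinol carrier RBP4 (-6.54), fetuin-A (AHSG, -5.35) and transferrin (TF, -5.16), of the second kind, fell too. FGB, ALB, AHSG and TF passed the filter only through the sensitive libraries, so each had to be lower in resistant cells. LCN2, lipocalin 2, which binds bacterial siderophores, rose, with 24.4, 29.8 and 42.4 FPKM in resistant libraries, against 0, 0.152 and 0 FPKM in sensitive libraries (4.95, adjusted p = 2.29e-06). SAA1, an acute phase apolipoprotein that did not pass the filter, lay the same way as SERPINA3, at 1.08, 0.534 and 1.07 FPKM in resistant libraries, against 0, 0.0375 and 0 FPKM in sensitive libraries.

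Serpins outside the cluster split between the directions. AGT, angiotensinogen, is a clade A serpin encoded elsewhere and not an inhibitor, and it fell to 0.865, 6.37 and 2.66 FPKM in resistant libraries, against 602, 643 and 685 FPKM in sensitive libraries (-7.45, adjusted p = 1.09e-05). Resistant replicate 2 was again its high library. Of 18 serpins of other clades with rows, 11 were tested, 4 rose, 4 fell and 3 were not called, with a median of 0.21. That called share, 72.7%, was near the 67.7% of all tested genes, of which 35.2% were higher and 32.5% lower. Of the 4 that fell, 3, SERPINF1, SERPINF2 and SERPINB9, passed the filter only through the sensitive libraries. Among those that rose, SERPINE2, protease nexin-1, averaged 104 ± 12.1 FPKM in resistant and 2.85 ± 0.359 FPKM in sensitive cells (4.77, adjusted p = 5.11e-07), and SERPINB8 rose by 4.35.

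The serpins that fell are secreted into plasma or, for SERPINB9, kept inside the cell, where it inhibits granzyme B. The complement C1 inhibitor SERPING1 averaged 0.558 ± 0.475 FPKM in resistant and 86.5 ± 31.1 FPKM in sensitive cells (-5.80, adjusted p = 5.27e-06). SERPINF2, the plasmin inhibitor (-5.34), SERPINF1 (-4.67) and SERPINB9 (-2.64) fell too. SERPINB1, SERPINB6 and SERPINI1 were not called. SERPINB6 averaged 17.8 ± 0.857 FPKM in resistant and 17.6 ± 2.23 FPKM in sensitive cells, and the sign of its small difference turned with scaling to the geometric mean sample.

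**Figure D4:**
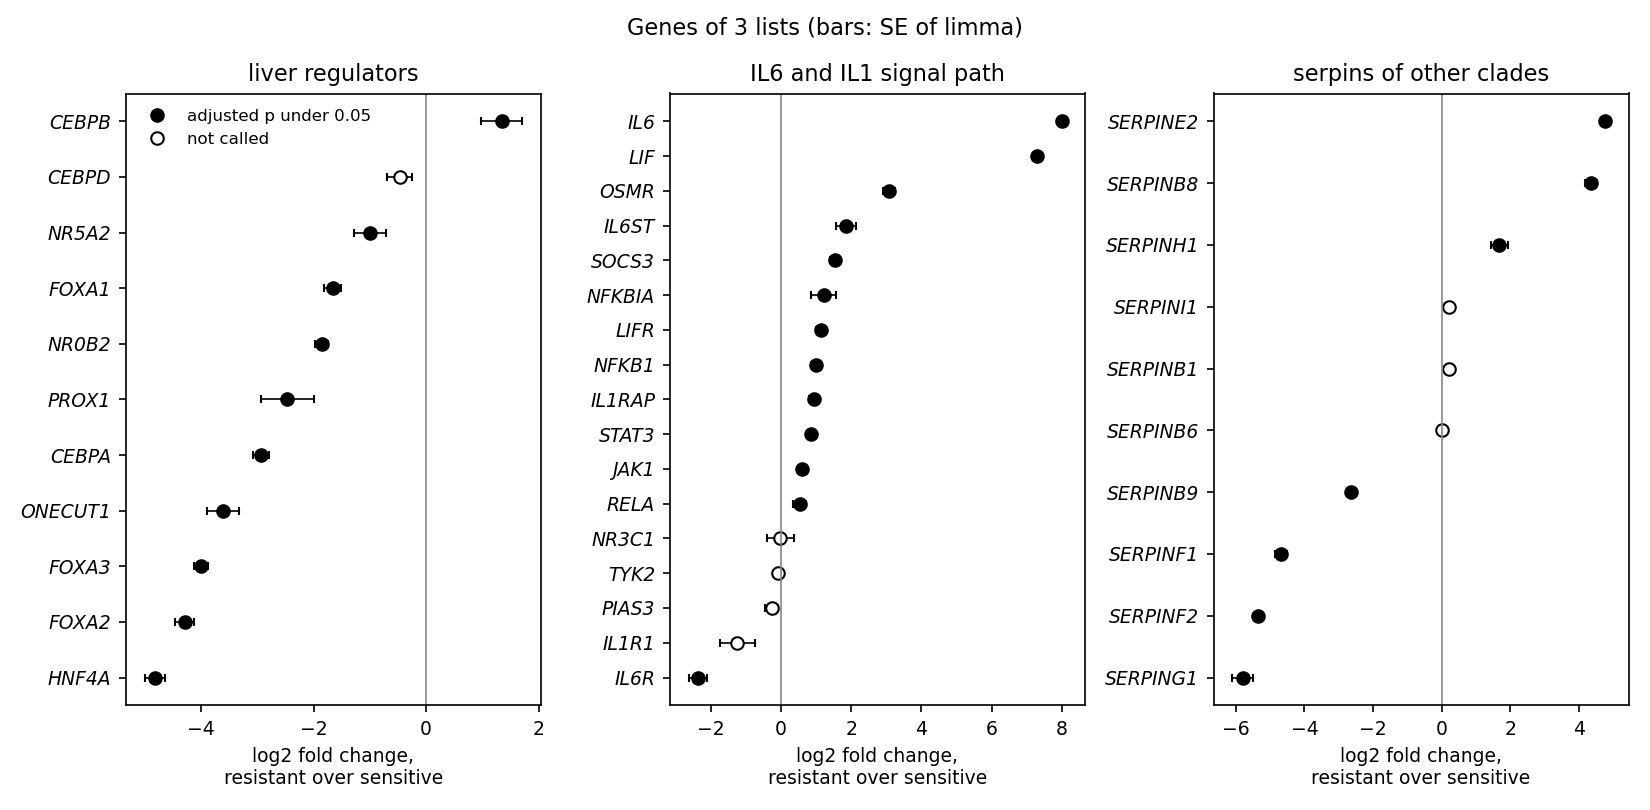
Log2 fold change on the log2(FPKM + 1) scale, resistant over sensitive, with the SE of limma as bars, for the reported tested genes of 3 lists, liver regulators, the IL6 and IL1 signal path and serpins of other clades. Filled points passed an adjusted p under 0.05 and open points did not. Liver regulators run from -4.82 (HNF4A) to 1.34 (CEBPB), the signal path from -2.37 (IL6R) to 8.02 (IL6) and the serpins from -5.80 (SERPING1) to 4.77 (SERPINE2).

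Of proteases and cofactors that the members act on, the clotting proteins tested were lower in resistant cells. Of 17 with rows, 4 were tested, 1 rose and 3 fell, so all 4 were called, beside 67.7% of all tested genes. The 3 passed the filter only through the sensitive libraries and the 1 only through the resistant ones, so each had to differ in that direction. Thrombin's precursor F2 averaged 0.196 ± 0.179 FPKM in resistant and 50.4 ± 3.25 FPKM in sensitive cells (-5.43, adjusted p = 4.78e-07). F10, whose active form SERPINA10 inhibits, measured 0.0333, 0.463 and 0.0495 FPKM in resistant libraries, against 14.7, 17.2 and 21.5 FPKM in sensitive libraries (-4.00, adjusted p = 4.51e-06). PROZ, the cofactor of SERPINA10, did not pass the filter and was at 0 in every resistant library, against 0.642, 0.487 and 0.199 FPKM in sensitive libraries. PROC, the precursor of activated protein C, which SERPINA5 inhibits, fell by 1.69.

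PLAU, the urokinase protease that SERPINA5 can inhibit, was the 1 protease that rose, with 949, 961 and 760 FPKM in resistant libraries, against 0.664, 0.675 and 0.558 FPKM in sensitive libraries (9.08, adjusted p = 9.14e-08). The SERPINA1 target ELANE, the SERPINA3 target CTSG, the SERPINA4 target KLK1 and the plasmin precursor PLG were listed at 0 in all libraries. Plasma inhibitors that are not serpins gave 7 tested of 13, with 2 that rose, 4 that fell and 1 not called, a called share of 85.7% beside the 67.7% of all tested genes. Of these, ITIH2 and KNG1 passed the filter only through the sensitive libraries and TFPI2 only through the resistant ones. A2M, the broad protease trap alpha-2-macroglobulin, averaged 3.65 ± 2.70 FPKM in resistant and 610 ± 61.8 FPKM in sensitive cells (-7.18). AMBP (-7.54), ITIH2 (-4.13) and KNG1 (-2.24) also fell. TFPI2, an inhibitor of trypsin-like proteases, averaged 168 ± 10.8 FPKM in resistant and 0.0569 ± 0.0489 FPKM in sensitive cells (7.32), and TFPI rose by 0.77.

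Genes that fold, export or dispose of alpha-1-antitrypsin lay in both directions, with a median of -0.49. Of 22, 21 were tested, 3 rose, 10 fell and 8 were not called, a called share of 61.9% beside the 67.7% of all tested genes. The export receptor SURF4 averaged 54.8 ± 3.29 FPKM in resistant and 135 ± 25.8 FPKM in sensitive cells (-1.27, adjusted p = 0.000276), and the coat subunit SEC24C fell by 1.60. The chaperone CALR averaged 187 ± 11.4 FPKM in resistant and 876 ± 107 FPKM in sensitive cells (-2.22), and FURIN, a protease of the secretory pathway, averaged 17.5 ± 0.269 FPKM in resistant and 314 ± 52.2 FPKM in sensitive cells (-4.08). MCFD2, a partner in the LMAN1 cargo receptor, was not called (0.09, adjusted p = 0.473). HSPA5, the main chaperone of the endoplasmic reticulum, rose by 0.88.

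Receptors that clear serpin-protease complexes, listed together with LRPAP1, gave 6 tested of 7, of which 5 fell and 1 rose. All 6 were thus called, beside 67.7% of all tested genes. LRP1, the main such receptor in liver, averaged 6.17 ± 0.394 FPKM in resistant and 14.1 ± 3.31 FPKM in sensitive cells (-1.05, adjusted p = 0.00141). LRP8 (-1.74) and VLDLR (-0.54) fell as well, as did LRPAP1 (-0.97), which is not itself a receptor. SORL1 rose by 0.58 (adjusted p = 0.0353), but was not called without a filter (adjusted p = 0.0711) or without resistant replicate 1, 2 or 3 or sensitive replicate 2 (adjusted p = 0.0517 to 0.104). VLDLR was not called without resistant replicate 1 (adjusted p = 0.0528).

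Markers of other cell types were summed as well, and their part in the members' values was not tested. Fibroblast markers summed to 0.0583 to 0.265 FPKM in resistant and 0.938 to 1.85 FPKM in sensitive libraries, and endothelial markers to 0.200 to 0.348 FPKM in resistant and 0.120 to 0.185 FPKM in sensitive libraries. Leukocyte markers summed to 2.94 to 5.77 FPKM in resistant and 253 to 273 FPKM in sensitive libraries, which in sensitive libraries was nearly all LYZ, with PTPRC at 0 in all libraries. Cholangiocyte markers summed to 126 to 144 FPKM in resistant and 37.6 to 44.2 FPKM in sensitive libraries, led in resistant cells by KRT7, which rose by 6.19.

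Genes whose pattern over the 6 libraries was nearest to a member were found by the root mean square difference in log2(FPKM + 1), each gene centred on its own mean, among 11689 genes outside clade A. For SERPINA1 these were FGA (0.113), the noncoding RNA UCA1 (0.114) and the lysozyme gene LYZ (0.197). For SERPINA6 they were ID2 (0.128), APOC3 (0.145) and ID4 (0.162). For SERPINA10 they were LGSN (0.0253), KNG1 (0.0420) and COBL (0.0494). FGA shared the high resistant replicate 2 of SERPINA1, with 0.919, 2.46 and 0.744 FPKM in resistant libraries, against 421, 409 and 395 FPKM in sensitive libraries. ID2 shared the high sensitive replicate 3 of SERPINA6, with 1.61, 1.88 and 1.21 FPKM in resistant libraries, against 98.8, 101 and 138 FPKM in sensitive libraries.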

How the data were processed

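RNA-seq of 3 resistant and 3 sensitive libraries was analysed from 1 deposited table per library of 24432 gene symbols, with groups and replicate numbers taken from the sample titles. The authors deposited 1 value per gene, inferred from the values to be FPKM, scaled to transcript length and library size, which RPKM would resemble. Each library took 1.5 µg of total RNA, per the labels. The submitters' processing notes name cutadapt and HISAT2, with no version. Counting program, build, annotation and strand setting were not given, and read counts are not analysed here.

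Genes that reached 1 FPKM in 3 or more libraries were fitted together with limma-trend (limma 3.58.1, R 4.3.3) on log2(FPKM + 1), a pseudocount of 1, with no block. Genes were called at a two-sided Benjamini-Hochberg adjusted p under 0.05 over 11694 genes. The fit was tested on simulated data in which far fewer genes changed than were called here, so that test does not bear on the called share. Figures used matplotlib 3.10.9, and tables used scipy 1.17.1, numpy 2.4.6, pandas 2.3.3 and Python 3.11.15. SD is over 3 libraries of FPKM and SE is that of limma. Intervals cover counting error only.

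The members, the 9 gene lists around them, the 5 marker lists and the tests were chosen with earlier results of these data known. Named genes were the members, up to 6 called genes per list by size of change, up to 3 uncalled genes per list by mean, flanking genes called at 2-fold or more and the 3 nearest patterns for each member with a mean of at least 1 FPKM over all libraries, which SERPINA3, SERPINA4, SERPINA5 and SERPINA11 do not reach. CEBPB, LCN2, SAA1, SERPINB9, HSPA5, NR3C1, PROZ, PPP4R4, DICER1 and DICER1-AS1 were named after their values were seen. Some genes that this rule names are not reported here by name, though list counts include them. Of the other clade A serpins, SERPINA2, SERPINA7, SERPINA12 and SERPINA13P are not analysed here. Promoters and gene order came from RefSeq on GRCh38.p14, matched by symbol for all 7 members, and genes without a row were left out of the gene order. Alternatives were each library left out, the replicate block, no trend, scaling to the geometric mean sample, quantile normalization, a filter at a mean of 5 FPKM, no filter and a pseudocount of 0.1.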

Additional observations from a re-analysis of the deposited data

How the results depend on the processing

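The 7920 genes called became 4973 with a filter on a mean of at least 5 FPKM, where 7396 genes were tested, and 6675 to 9442 with 1 library left out, lowest without resistant replicate 2 and highest without sensitive replicate 3. Called flanking genes became 4 of 7 tested under that filter, against 12 of 17, and 10 to 14 with 1 library left out, and the called genes of all lists together, 74, became 66 to 85. Fewer genes were tested under that filter, and the called share there was 67.2% of all genes, against 67.7%. For flanking genes the share was 57.1%, against 70.6%. The median log2 difference of the 7 members, -0.21, was -1.31 with a pseudocount of 0.1 and -0.28 to -0.16 with 1 library left out. These medians are the values of SERPINA5, a gene near the floor, and do not stand for the members, which ran from -7.41 to 1.17. Each member kept its direction with a pseudocount of 0.1, scaling to the geometric mean sample, quantile normalization and each library left out. The replicate block leaves a difference of group means as it is. Groups that do not overlap, those of 6 members, cannot turn with another pseudocount or with 1 library left out. For these members those settings were therefore no check on direction. SERPINB6, 0.02, turned to -0.0345 with scaling to the geometric mean sample and ran from -0.0749 (without sensitive replicate 3) to 0.0982 with 1 library left out, and TYK2, -0.08, ran from -0.1227 to 0.0005 (without resistant replicate 3). NR3C1, -0.01, was 0.0307 with a pseudocount of 0.1 and ran from -0.4702 (without sensitive replicate 3, adjusted p = 0.00716) to 0.2811 with 1 library left out. Apart from that NR3C1 value none of these was called, and the cause was not tested. Members at 0 in resistant libraries are limited by depth.

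Deviations from the group mean correlated at -0.42, 0.07 and -0.23 between the groups for replicate numbers 1, 2 and 3, and not every sample correlated best with its own number. With 3 libraries in each group the deviations are tied to each other, so these values cannot decide whether samples were paired. With the replicate number as a block 7193 genes were called, with 72 of the listed genes and 11 of the flanking genes.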
